A study of Saccharomyces cerevisiae with 12 samples.

Results

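Ribonucleotide reductase (RNR) and its regulators were followed through RNA-seq of *Saccharomyces cerevisiae* cultures given tetracycline (Tet), doxycycline (Dox) or 4-epidoxycycline (4-ED). The loci were chosen by identifier from a list of 8, out of 7080 loci in each of the 3 deposited tables. The list holds the subunit genes RNR1, RNR2, RNR3 and RNR4, the inhibitor genes SML1 and HUG1, the repressor gene RFX1, and YLR437C-A, which the list pairs with the name DIF1. The RefSeq annotation of the R64 genome gives DIF1 the locus tag YLR437C and holds no gene under YLR437C-A. Both loci are therefore described, DIF1 as YLR437C and YLR437C-A under its identifier only.

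The 12 libraries came from 3 cultures each with Tet, Dox and 4-ED at 1.5 μg/ml in YPD and 3 in YPD alone. The sample labels give the strain as BY4741, and the methods of the study give R1158, a MATa derivative of it that carries the tetracycline-controlled transactivator tTA under a CMV promoter, so treated and control cells alike held tTA. LEU2 and MET17, deleted in this lineage, were listed at 0 FPKM in every group. URA3, which BY4741 lacks and R1158 carries with tTA, stood at 322 FPKM with Tet, 257 with Dox and 298 with 4-ED, against 230 to 235 FPKM in the controls. HIS3, which carries a partial deletion in both strains, was listed at 60.5 to 69.6 FPKM over all groups. STE2, the receptor gene of MATa cells, stood at 109 to 144 FPKM over all groups, and STE3, its counterpart in MATα cells, at 4.67 to 5.81 FPKM. The pheromone genes MFA1 and MF(ALPHA)1 stood at 1912 to 2543 and 26.7 to 58.9 FPKM over all groups. The methods state that the treated cultures grew more slowly and were collected at the same density later, so an effect of the compound and of slower growth cannot be told apart.

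RNR makes the deoxyribonucleotides for DNA synthesis by reducing ribonucleotides, and its activity sets the size of the precursor pool. Cells raise it in S phase and after DNA damage. In budding yeast the large subunit gene RNR1 is switched on around the start of S phase by the transcription factor MBF, which binds the MluI cell cycle box. RNR2, RNR3, RNR4 and HUG1 are held down by Rfx1, also called Crt1, which binds the X-box and recruits the corepressors Tup1 and Cyc8. The checkpoint kinases Mec1, Rad53 and Dun1 release that repression when DNA is damaged, and RNR3 and HUG1 are the genes that respond most sharply.

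The stretches upstream of the 5 genes that these factors are known to act on are shown so that matches to these motifs can be seen. Whether the motifs bear on the values was not tested. Each was read 5′ to 3′ on the strand of the gene from the R64 genome and was chosen after the motif matches in the 800 bases before the start codon had been located. Capitals mark the MluI cell cycle box, ACGCGT, and 1 arm of the X-box, GGCAAC, or GTTGCC where it lies on the other strand.
RNR1, chrV:298450-298649, plus strand: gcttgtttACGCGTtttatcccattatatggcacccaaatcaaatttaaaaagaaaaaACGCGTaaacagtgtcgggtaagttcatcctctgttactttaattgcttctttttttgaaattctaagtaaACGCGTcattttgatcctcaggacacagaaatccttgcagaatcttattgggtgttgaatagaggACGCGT
RNR3, chrIX:240859-241008, minus strand: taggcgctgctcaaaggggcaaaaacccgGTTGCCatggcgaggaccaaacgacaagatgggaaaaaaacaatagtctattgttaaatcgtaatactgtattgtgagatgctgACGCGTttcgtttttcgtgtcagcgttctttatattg
RNR2, chrX:391924-392053, plus strand: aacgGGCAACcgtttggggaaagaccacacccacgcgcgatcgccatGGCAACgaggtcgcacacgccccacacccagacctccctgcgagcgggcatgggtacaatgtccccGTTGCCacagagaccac
RNR4, chrVII:856652-856721, minus strand: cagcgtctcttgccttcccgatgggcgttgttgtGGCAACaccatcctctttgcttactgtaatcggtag
HUG1, chrXIII:158520-158619, plus strand: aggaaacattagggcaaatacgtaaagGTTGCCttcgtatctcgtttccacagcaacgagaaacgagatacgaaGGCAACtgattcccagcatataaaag

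RNR1 held 4 copies of ACGCGT in its 800 bases, starting 492, 442, 371 and 306 bases before the start codon. RNR3 held 2 copies and RNR4 held 1, and none was found for RNR2, SML1, HUG1, DIF1 or RFX1. Of the 6003 nuclear coding sequences with a full window, 7.63% held at least 1 copy and 0.766% at least 2, and RNR1 was the 1 gene with at least 4. GGCAAC, searched on both strands, was found 3 times for RNR2, 3 times for HUG1, 2 times for RNR4 and 1 time each for RNR1, RNR3 and SML1. The match counted for SML1, 789 bases before its start codon, is the same site as the HUG1 match at 166 bases. The window of SML1 spans the whole of its neighbour HUG1, so this site was counted for both genes. At least 1 match was present for 22.2% of all genes and at least 2 for 2.85%. The motifs do not overlap each other in these windows. A match is a run of letters and not a measured binding site.

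**Figure D1:**
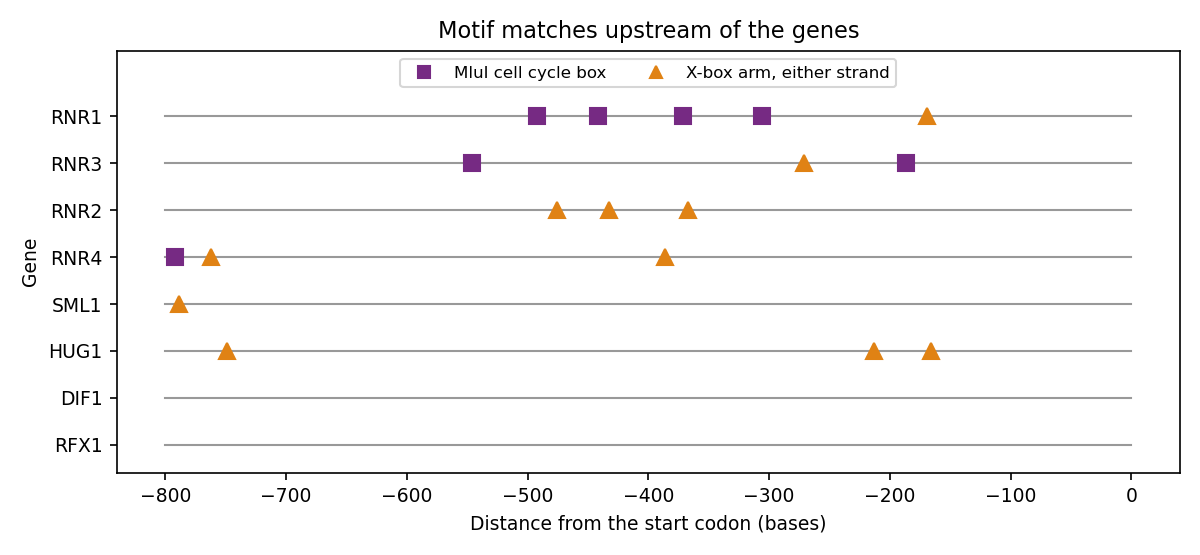
Matches to the MluI cell cycle box (squares) and to 1 arm of the X-box on either strand (triangles) in the 800 bases before the start codon of each gene, with distance from the start codon in bases on the x axis and the genes on the y axis. The 4 squares of RNR1 lie between 306 and 492 bases before its start codon, and DIF1 and RFX1 have no match. The triangle of SML1 is the same site as the triangle of HUG1 nearest to the HUG1 start codon.

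Each table gives 1 value per group in FPKM (fragments scaled for transcript length and sequencing depth), which Cuffdiff computed over the 3 libraries of that group. No spread between cultures can be had from these values, so no difference below has a test or an error, and each is a difference between pooled groups. The controls are the same 3 cultures in all 3 tables, and the values of a gene there stood in a median ratio of 0.993 to 1.02 between tables. Log2 ratios are treatment over control within a table, without a pseudocount. A gene was kept when both values were above 0 and their mean was at least 1 FPKM, and a ratio of at least 1.5 in either direction is called past 1.5-fold. All 8 listed loci and DIF1 were kept in every comparison.

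With Tet, 2 of the 8 listed loci were past 1.5-fold, RNR1 and YLR437C-A, both higher than in the controls. Of all 6547 genes kept, 5.45% were past 1.5-fold, made up of 3.89% higher and 1.56% lower. With Dox, RNR1 was higher and YLR437C-A lower past 1.5-fold, where the share of all 6536 genes was 5.02%, with 1.94% higher and 3.08% lower. With 4-ED, none of the 8 was past 1.5-fold, beside 7.7% of 6559 genes, 5.4% higher and 2.3% lower. With YLR437C counted for DIF1 in place of YLR437C-A, RNR1 alone was past 1.5-fold with Tet and with Dox. The median log2 ratio of those 8 genes came to 0.23 with Tet, -0.05 with Dox and 0.14 with 4-ED, beside medians over all genes kept of 0.08, -0.03 and -0.01.

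The large subunit carries the catalytic site and the sites that sense nucleotide levels. RNR1 (YER070W, chromosome V, 298950 to 301616) encodes the form used in every S phase. It stood at 13.6 FPKM with Tet, against 8.54 FPKM in the controls, a log2 ratio of 0.67. With Dox it stood at 15.3 FPKM, against 8.68 FPKM in the controls, a log2 ratio of 0.82 or 1.76-fold. With 4-ED it stood at 9.62 FPKM, against 8.45 FPKM in the controls, a log2 ratio of 0.19. The level was thus highest with Dox, next with Tet, and near the control with 4-ED. The log2 ratio of RNR1 was above that of 97.3% of all genes kept with Tet, 99.1% with Dox and 77.6% with 4-ED. Long genes at a like level were also looked at, a choice made after the data were seen. Among genes of at least 1000 bp that averaged 5 to 20 FPKM, 3.08% were higher past 1.5-fold with Tet, 2.14% with Dox and 0.6% with 4-ED. An excess of S-phase cells and more RNA per cell cannot be told apart in RNA from whole cultures.

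RNR3 (YIL066C, chromosome IX, 238099 to 240708) encodes the alternative large subunit and is the classic reporter of DNA damage. It stood at 5.35 FPKM with Tet, against 5.43 FPKM in the controls. With Dox it stood at 4.77 FPKM, against 5.52 FPKM in the controls, and with 4-ED at 5.22 FPKM, against 5.39 FPKM. All 3 treated values were below the control, at log2 ratios of -0.02, -0.21 and -0.05 for Tet, Dox and 4-ED. RNR3 was thus the lowest of the subunit genes in every group, and the level of RNR1 over that of RNR3 came to 2.54 with Tet, 3.21 with Dox and 1.84 with 4-ED, against 1.57 in the controls. The coding sequences of RNR1 and RNR3 were 77.8% identical over 2598 aligned bases. Their longest identical run was 38 bases, which is shorter than the reads of the study.

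The small subunit is a pair of Rnr2, which holds the tyrosyl radical that starts the reaction, and Rnr4, which has no radical and is needed to assemble it. RNR2 (YJL026W, chromosome X, 392404 to 393603) stood at 333 FPKM with Tet, 305 FPKM with Dox and 286 FPKM with 4-ED, against 269, 273 and 267 FPKM in the controls of the same tables. RNR4 (YGR180C, chromosome VII, 855264 to 856301) stood at 767 FPKM with Tet, 660 FPKM with Dox and 689 FPKM with 4-ED, against 602, 612 and 598 FPKM in the controls. Both genes were somewhat higher than the control with every compound, and neither passed 1.5-fold. The log2 ratios of RNR2 came to 0.31 with Tet, 0.16 with Dox and 0.10 with 4-ED. Those of RNR4 were 0.35, 0.11 and 0.20 in the same order of compounds. The level of RNR4 over that of RNR2 stayed between 2.16 and 2.41 in the treated groups, against 2.24 in the controls. The small subunit transcripts thus kept nearly the same ratio to each other, while that of RNR2 to RNR1 came to 24.6 with Tet, 19.96 with Dox and 29.7 with 4-ED, against 31.5 to 31.6 in the controls.

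**Figure D2:**
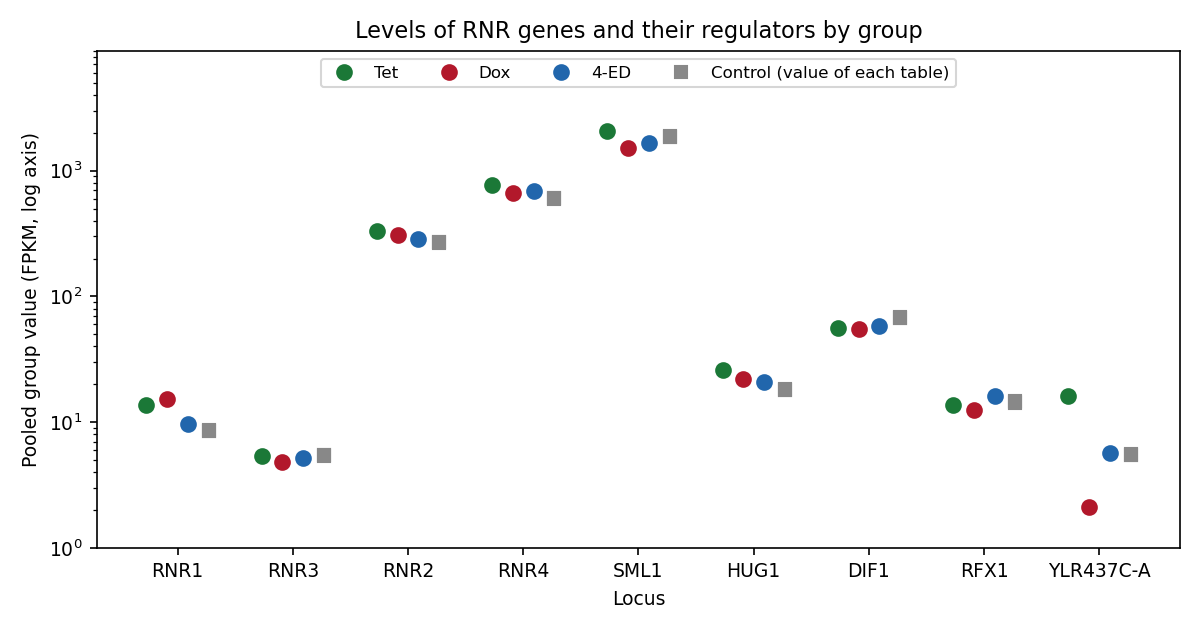
Pooled group values in FPKM on a log axis for each locus, with Tet, Dox and 4-ED as circles and the control value of each of the 3 tables as squares, which nearly coincide. RNR1 stands at 15.3 FPKM with Dox and 13.6 FPKM with Tet, above its control squares near 8.5 FPKM, whereas the values of RNR3 lie between 4.77 and 5.52 FPKM.

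Small proteins hold the enzyme in check. Sml1 binds the large subunit and blocks its activity until it is phosphorylated through Dun1 and destroyed in S phase or after damage. SML1 (YML058W, chromosome XIII, 159383 to 159697) had the highest level of these genes in every group, at 2074 FPKM with Tet, against 1865 FPKM in the controls. With Dox it stood at 1502 FPKM, against 1895 FPKM in the controls, and with 4-ED at 1657 FPKM, against 1854 FPKM. SML1 was thus slightly higher with Tet and lower with Dox and 4-ED, at log2 ratios of 0.15, -0.34 and -0.16, none past 1.5-fold. The level of SML1 over that of RNR1 came to 153 with Tet, 98.2 with Dox and 172 with 4-ED, against 218 to 219 in the controls. This is a ratio of transcripts, and the protein is regulated by its destruction.

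HUG1 (YML058W-A, chromosome XIII, 158760 to 158966) encodes a small protein that binds the small subunit and is strongly induced by DNA damage. It stood at 26.0 FPKM with Tet, against 17.98 FPKM in the controls, and at 22.2 FPKM with Dox, against 18.3 FPKM. With 4-ED it stood at 20.8 FPKM, against 17.9 FPKM in the controls. All 3 treated values were above the control, and the largest log2 ratio was 0.53 with Tet, followed by 0.28 with Dox and 0.22 with 4-ED, none past 1.5-fold. HUG1 spans 207 bp. Of genes under 500 bp, 5.8% were higher past 1.5-fold with Tet, 3.51% with Dox and 13.4% with 4-ED. The log2 ratio of HUG1 was above that of 94.8% of all genes kept with Tet, 88.9% with Dox and 80.3% with 4-ED. That of RNR3 was above 32.5%, 21.5% and 43.1% in the same order. The damage reporters RNR3 and HUG1 lay on opposite sides of the control with each compound, although the ratio of RNR3 with Tet was only -0.02.

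Dif1 brings the small subunit into the nucleus, away from the large one in the cytoplasm, and is degraded after damage. DIF1 (YLR437C, chromosome XII, 1011622 to 1012023) stood at 56.1 FPKM with Tet, 55.3 FPKM with Dox and 57.9 FPKM with 4-ED, against 67.2, 68.3 and 66.9 FPKM in the controls of the same tables. All 3 treated values were lower than the control, at log2 ratios of -0.26, -0.30 and -0.21, and none was past 1.5-fold. RFX1 (YLR176C, chromosome XII, 507797 to 510232), the repressor gene, stood at 13.8 FPKM with Tet, against 14.4 FPKM in the controls. With Dox it stood at 12.4 FPKM, against 14.6 FPKM in the controls, and with 4-ED at 16.3 FPKM, against 14.3 FPKM. Its log2 ratios were -0.06, -0.24 and 0.19, so it lay on either side of the control. With Dox, the level of RNR1 was 1.23 times that of RFX1, against 0.595 times in the controls, which was the 1 change in the order of levels among these 8 genes in any treated group.

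YLR437C-A could not be read apart from CAR2 (YLR438W), the ornithine transaminase gene of arginine breakdown. The deposited tables give both the same interval, chromosome XII, 1012459 to 1013775, of which CAR2 covers 1012501 to 1013775 in the RefSeq annotation. Cuffdiff divides reads between loci that overlap in this way. YLR437C-A was listed at 16.0 FPKM with Tet, against 5.48 FPKM in the controls, and at 2.11 FPKM with Dox, against 5.56 FPKM. With 4-ED it was listed at 5.69 FPKM, against 5.47 FPKM in the controls. Its log2 ratios of 1.55, -1.40 and 0.06 pointed in opposite directions for Tet and Dox. CAR2 was lower with all 3 compounds, at 61.6 FPKM with Tet, 46.5 with Dox and 49.8 with 4-ED, against 86.5, 87.9 and 86.0 FPKM in the controls. Among all loci that share their interval with another row, 12.9% were past 1.5-fold with Tet, 10.3% with Dox and 17.1% with 4-ED, a background added after the data were seen. The part of the shared interval in the values of YLR437C-A was not tested.

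**Figure D3:**
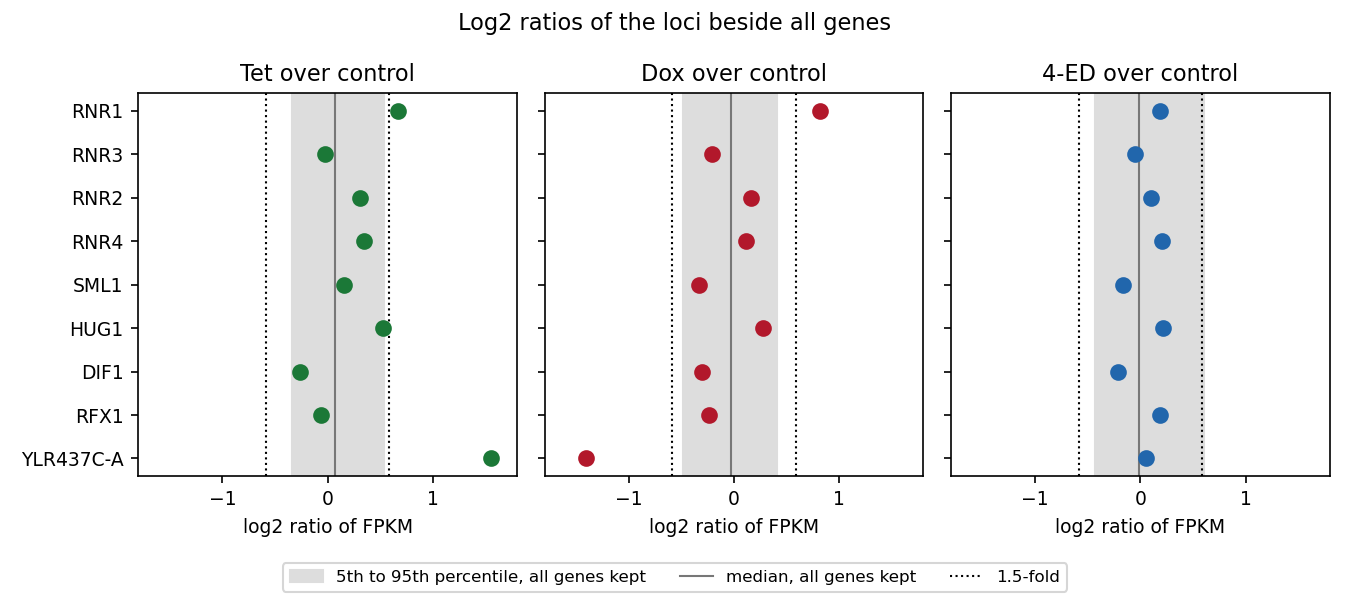
Log2 ratios of treatment over control FPKM for each locus (points) with Tet, Dox and 4-ED in separate panels, beside the 5th to 95th percentile of all genes kept (grey), their median (line) and the 1.5-fold limits (dotted). RNR1 lies beyond the grey band and the limit with Tet (0.67) and Dox (0.82) and inside both with 4-ED (0.19), and YLR437C-A lies beyond them on opposite sides with Tet and Dox.

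The 3 compounds were given at 1 dose, and 3 pairs were compared by the difference of their log2 ratios, which refers each to the control value of its own table. No test or interval of these differences was possible from pooled values. 4-ED is an epimer of Dox, with the same atoms and the opposite configuration at a single carbon. RNR1 had a log2 ratio of 0.82 with Dox and 0.19 with 4-ED, a difference of 0.63, past 1.5-fold and above that of 98.7% of genes. Over all genes kept in both, 6.17% differed past 1.5-fold between Dox and 4-ED, made up of 1.66% higher and 4.51% lower with Dox. Dox and Tet differ in the position of a hydroxyl group. Between them, RNR1 differed by 0.15 (Dox minus Tet), beside a median difference over all genes of -0.11, and 3.08% of genes differed past 1.5-fold, 2.36% being lower with Dox. Relative to the medians of both comparisons, the difference for RNR1 was 0.25. Between 4-ED and Tet, RNR1 differed by -0.48, and 4.17% of genes differed past 1.5-fold, 1.87% being lower with 4-ED.

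RNR1 had the largest difference of these genes, YLR437C-A aside, between Dox and 4-ED and between 4-ED and Tet, but not between Dox and Tet, where SML1, HUG1, RNR4, RNR3 and RFX1 differed more in size. That order for Dox and Tet holds the shift of all genes. Relative to the medians of both comparisons, SML1 alone differed more than RNR1, at -0.39 against 0.25. HUG1 then stood at -0.15, RNR4 at -0.14, RNR3 at -0.09 and RFX1 at -0.07. RNR3, RNR2, RNR4, HUG1 and DIF1 differed by between -0.31 and 0.06 in every pair, the largest in size being HUG1 for 4-ED minus Tet. SML1 differed by -0.49 (Dox minus Tet) and RFX1 by -0.42 (Dox minus 4-ED). None of the 7 genes other than RNR1 was past 1.5-fold in any pair, whereas YLR437C-A was past it in all 3.

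Genes that act around RNR were read from 4 lists. The first holds 17 genes that MBF and its relative SBF switch on at the passage from G1 to S phase, as MBF does RNR1. Some of its genes were already known to be higher in these data, so its counts are not independent evidence. With Tet, 7 of the 17 were higher past 1.5-fold and 0 lower, where 3.89% of all genes kept were higher, and the median log2 ratio was 0.58 beside 0.08 for all genes kept. With Dox, 6 were higher and 0 lower, where 1.94% of all genes were higher, and the median was 0.53 beside -0.03. With 4-ED, 1 was higher and 0 lower, a count near the background of 5.4% of all genes, and the median was 0.36 beside -0.01. Among protein-coding genes, 2.54% were higher with Tet, 1.28% with Dox and 2.88% with 4-ED. Among genes of at least 1000 bp at 5 to 20 FPKM, 0.6% were higher with 4-ED. All 17 had a positive log2 ratio with Tet and with Dox, and 16 with 4-ED, where CLN2, a G1 cyclin gene, was at -0.01 and turned positive when centred on the median of all genes. The ratio of RNR1 lay inside the range of the list with each compound, which ran from 0.30 to 1.05 with Tet, from 0.25 to 0.86 with Dox and from -0.01 to 0.59 with 4-ED. Of the 17 genes, 11 held at least 1 copy of ACGCGT in the 800 bases before the start codon and 8 at least 2. Of the 6003 windows of all genes, 7.63% and 0.766% did. The 17 were listed as genes of MBF, which binds this motif, and of SBF, so these motif counts are not independent evidence either.

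The largest log2 ratio of that list with Tet and with Dox was in TOS4, a transcription factor gene of G1 and S phase. TOS4 stood at 9.70 FPKM with Tet, against 4.69 FPKM in the controls, and at 8.64 FPKM with Dox, against 4.76 FPKM. CDC45, a helicase factor of the replication fork, stood at 6.02 FPKM with Tet, against 3.54 FPKM in the controls, and at 6.35 FPKM with Dox, against 3.598 FPKM. POL1, the catalytic subunit of DNA polymerase α, stood at 13.2 FPKM with Tet, against 8.58 FPKM in the controls, and at 14.5 FPKM with Dox, against 8.72 FPKM. The cohesin subunit gene MCD1 was likewise past 1.5-fold with both, at log2 ratios of 0.67 with Tet and 0.64 with Dox. CLN1, a G1 cyclin gene, was past it with Tet (0.70), and POL2, the catalytic subunit of DNA polymerase ε, with Dox (0.61). SMC3, another cohesin subunit gene, was past it with Tet (0.72) and with 4-ED (0.59).

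The second list holds 10 genes that supply or reduce deoxyribonucleotides beside RNR. CDC21, thymidylate synthase, which also stands in the first list, was the 1 gene of the 10 higher past 1.5-fold with Tet and with Dox, where 3.89% and 1.94% of all genes were higher. It stood at 32.8 FPKM with Tet, against 18.3 FPKM in the controls, and at 29.4 FPKM with Dox, against 18.6 FPKM. With 4-ED it stood at 26.7 FPKM, against 18.1 FPKM in the controls, a log2 ratio of 0.56. DCD1, deoxycytidylate deaminase, was the 1 gene lower past 1.5-fold, with 4-ED, at 4.24 FPKM, against 6.88 FPKM in the controls, where 2.3% of all genes were lower. The thioredoxin pathway genes TRX1, TRX2 and TRR1, which return RNR to its reduced state, were not past 1.5-fold with any compound. The medians of the list came to 0.18 with Tet, 0.24 with Dox and 0.13 with 4-ED, beside 0.08, -0.03 and -0.01 for all genes.

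The third list holds 13 other regulators of RNR, with medians at 0.06 with Tet, -0.09 with Dox and -0.08 with 4-ED, near those of all genes. The checkpoint kinase gene RAD53 was the 1 gene higher past 1.5-fold with Dox, at 6.05 FPKM, against 3.43 FPKM in the controls, where 1.94% of all genes were higher. With Tet it stood at 4.45 FPKM, against 3.38 FPKM in the controls, and with 4-ED at 3.99 FPKM, against 3.35 FPKM. DUN1, the kinase gene that acts on Sml1, Dif1 and Rfx1, was the 1 gene past it with Tet, where 3.89% of all genes were higher, at 19.1 FPKM, against 11.7 FPKM in the controls, and stood 0.46 (Dox) and 0.34 (4-ED) above the controls on the log2 scale. The corepressor genes were not past 1.5-fold, with log2 ratios of 0.17, -0.24 and -0.38 for TUP1 and 0.17, 0.02 and -0.07 for CYC8 with Tet, Dox and 4-ED. The other 9 genes were not past 1.5-fold with any compound.

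The fourth list holds 10 transcripts known to increase after DNA damage, and 0 of them were past 1.5-fold with any compound. At the background shares above, fewer than 1 of 10 genes would be past it. The medians came to 0.05 with Tet, -0.03 with Dox and -0.03 with 4-ED, beside 0.08, -0.03 and -0.01 for all genes. DDR48, a stress-responsive gene, had the lowest ratio with Dox and 4-ED, at -0.53 and -0.50.

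**Figure D4:**
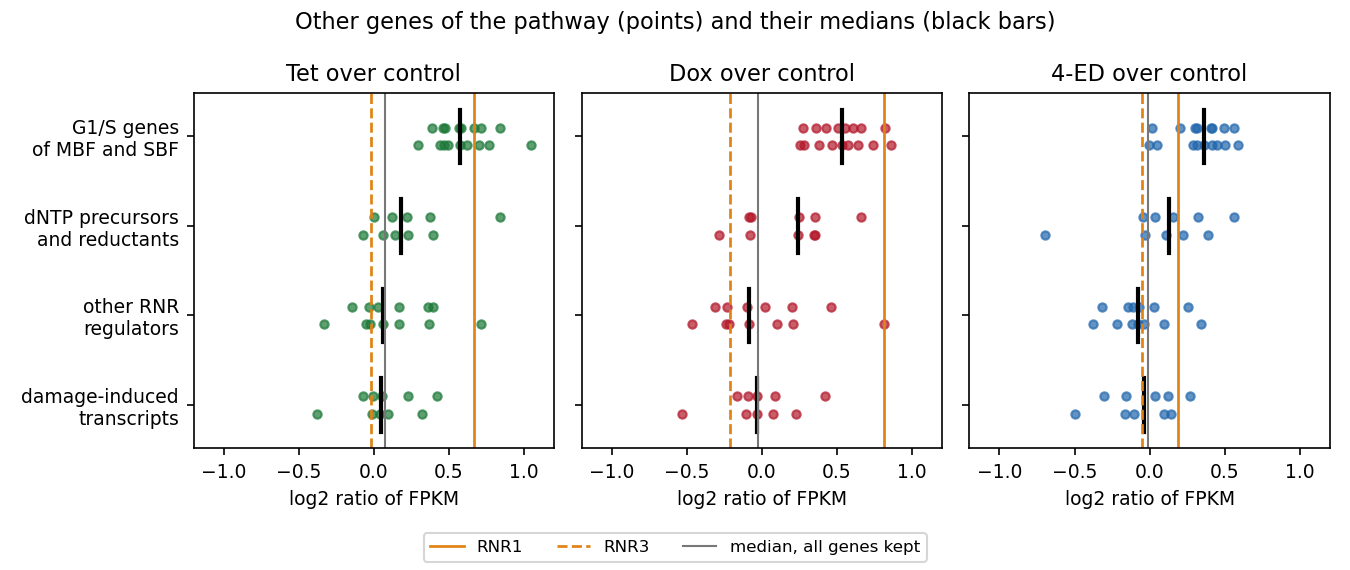
Log2 ratios of treatment over control FPKM for the genes of the 4 lists (points, with the median as a black bar) with Tet, Dox and 4-ED in separate panels, beside RNR1 (solid line), RNR3 (dashed line) and the median of all genes kept (grey line). The medians of the G1/S list stand at 0.58, 0.53 and 0.36, and those of the damage-induced list at 0.05, -0.03 and -0.03.

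The genes whose 3 log2 ratios lay nearest to those of RNR1 were found among 5833 genes that averaged at least 10 FPKM in every comparison, by Euclidean distance over the 3 comparisons, which share their controls. The nearest were SPA2, a polarity scaffold gene, at a distance of 0.15, ECO1, a cohesin acetyltransferase gene, at 0.18, and YJL218W at 0.19. No gene lay within 0.1 of RNR1. For RNR3 the nearest were YDL124W, LDB19 and TAF6, each at 0.01, and 249 genes lay within 0.1. RNR1 did not itself reach a mean of 10 FPKM in the 4-ED table, nor RNR3 in any table, so genes at their own level were in part left out of this search.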

How the data were processed

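RNA from 12 cultures was sequenced by the authors, who checked reads with FastQC, used Bowtie2 for mapping to the R64 build and Cuffdiff, on Ensembl gene models, for quantification. Software versions are not given in the sources used here. The authors deposited 1 Cuffdiff gene table per compound, whose group values are FPKM scaled within that table, with 1 value for the 3 libraries of a group. The tables also hold the authors' own fold changes, test statistics, p-values and q-values, which were not used. No counts were used, and the reads behind single values were not estimated.

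Samples were grouped by their titles. Log2 ratios of FPKM were computed without a pseudocount over all loci that name a gene, leaving out 1 row, and 5999 loci matched RefSeq. Table starts count from 0 and were raised by 1. The interval equalled that of RefSeq for 7 of the 8 listed loci. No test was run, because each group has 1 value. The fold counting was tested on simulated data. The genes named are the listed loci, DIF1, CAR2, the strain genes, every gene of the 4 lists past 1.5-fold, RAD53, DUN1, TUP1 and CYC8, and the 3 genes most like RNR1 and RNR3. TRX1, TRX2, TRR1, CLN2 and DDR48 were named after their values were seen. The values of 1 gene of the lists are not reported here. Members and lists were chosen with earlier results of these data known. Alternatives were pseudocounts of 1 and 10 FPKM, other filters, centring, and limits of 1.2-fold and 2-fold. Python 3.11.15, numpy 2.4.6, pandas 2.3.3 and biopython 1.88 were used.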

Additional observations from a re-analysis of the deposited data

How the results depend on the processing

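Of the 8 listed loci, 2 were past 1.5-fold with Tet, and 1 with 10 FPKM added, 5 with a limit of 1.2-fold, 1 with a limit of 2-fold and 1 with YLR437C in place of YLR437C-A, the last chosen after the data were seen. With Dox, 2 were past it, and 0 with 10 FPKM added, 1 with a mean of at least 10 FPKM, 4 with a limit of 1.2-fold, 1 with a limit of 2-fold and 1 with YLR437C in place of YLR437C-A. The 1 locus past 2-fold with Tet and with Dox was YLR437C-A, as was the 1 left with Tet after 10 FPKM was added. RNR1 was the 1 left with Dox at a mean of at least 10 FPKM. With 4-ED the count was 0 under all 8 alternatives, the limit of 1.2-fold included. The share of all genes was not computed under the other limits, pseudocounts or filters, or after centring. The counts under those settings, the 0 with 4-ED included, therefore have no background beside them. They show how the counting depends on the setting and are not read as results about these loci. Adding 10 FPKM lowers the ratio of any gene at about that level, and brought RNR1 to 0.35 with Tet and 0.44 with Dox, and YLR437C-A to -0.36 with Dox. Computed again under each alternative run on them, the log2 ratios of single loci gave 81 values and the differences between compounds 54. The other 78 of the 81 values, and all 54, kept the side of the limit seen in the main setting. None of those past it changed direction. The share of all genes past 1.5-fold was 3.55%, 3.29% and 4.7% among protein-coding genes and 9.18%, 8.96% and 16.8% among genes under 500 bp with Tet, Dox and 4-ED. No paired analysis was possible because the deposited columns pool the replicates of a group, and for the same reason no replicate was left out. From the pooled values used here, the differences of no locus, RNR1 as well as RNR2, RNR4, SML1 and HUG1, can be set against the spread between cultures. The authors' own test results were left unused.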
